A study of Mus musculus with 2 samples.

Results

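Fgf5, Pou3f1, Otx2, Car4 and Lef1 are marker genes of the formative and primed epiblast, and their levels are described here in 46C mouse embryonic stem cells that overexpressed Prdm14. The members are the 5 rows with these symbols in a deposited table of 886 genes that its authors listed as different between conditions. The Prdm14 cells overexpressed Flag-tagged Prdm14, and the control cells, called Flag cells, overexpressed the Flag tag alone. All cells were of the 46C line, which carries a green fluorescent protein reporter at Sox1, and grew in medium with serum and the cytokine LIF. The labels give 1 sample per condition, and each value is the authors' mean TPM (a transcript level scaled by transcript length and library size) with no value per library. The sources used here give neither the number of libraries behind a mean, nor their depth, nor the clones or pools used, so no SD, interval or test of the conditions could be made. Prdm14 stood at 399 TPM in Prdm14 cells and 3.30 TPM in Flag cells. Gadd45g, named as the tagged gene in the series' design text, stood at 3.57 TPM in Prdm14 cells and 21.6 TPM in Flag cells, so the high level in the Prdm14 cells is that of the gene in the sample labels.

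Mouse embryonic stem cells can be held in a naive state that resembles the epiblast before implantation. As they leave it they pass through a formative state, in which they become able to respond to lineage signals, towards a primed state that resembles the epiblast after implantation. The transcription factors Otx2 and Pou3f1 (also called Oct6) act early in this transition. The growth factor Fgf5 is a classic marker of the formative and primed epiblast, and Lef1 carries out Wnt signals in the nucleus. Cultures in serum and LIF are known to hold cells in more than 1 of these states. PRDM14 is a PR-domain protein that binds DNA and is known in mouse embryonic stem cells to hold back FGF receptor signalling and de novo DNA methylation.

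RefSeq promoter windows on GRCm38.p6, each of 300 bases from 250 before to 50 after an annotated start, matched 4 of the 5 members and gave 10 windows, since Otx2 and Lef1 have 4 starts each. Windows are shown for Fgf5 and Car4, the members with 1 annotated start, and for the Otx2 and Lef1 starts whose window held the letters bound by the gene's own factor family. The Fgf5 window is chr5:98253934-98254233 on the plus strand, and the Car4 window is chr11:84957504-84957803 on the plus strand. The Otx2 window is chr14:48665060-48665359 on the minus strand, and the Lef1 window is chr3:131156044-131156343 on the plus strand. Both lie inside the annotated gene, at a start downstream of its first base. The Lef1 window shown had 5 CpG dinucleotides, the fewest of the 4 Lef1 windows. Capitals mark every match to 5 short motifs searched on both strands.
Fgf5: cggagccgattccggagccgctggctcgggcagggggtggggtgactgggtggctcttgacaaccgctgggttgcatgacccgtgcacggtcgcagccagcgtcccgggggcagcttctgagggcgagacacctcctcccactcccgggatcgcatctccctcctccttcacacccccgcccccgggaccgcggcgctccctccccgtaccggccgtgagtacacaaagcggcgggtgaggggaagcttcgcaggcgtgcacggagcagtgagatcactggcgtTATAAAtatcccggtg
Car4: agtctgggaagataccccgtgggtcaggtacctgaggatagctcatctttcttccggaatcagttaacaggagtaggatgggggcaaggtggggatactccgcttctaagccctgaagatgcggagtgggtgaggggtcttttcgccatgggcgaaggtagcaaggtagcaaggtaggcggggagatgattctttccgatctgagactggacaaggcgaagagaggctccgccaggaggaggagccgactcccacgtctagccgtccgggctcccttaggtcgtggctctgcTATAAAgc
Otx2: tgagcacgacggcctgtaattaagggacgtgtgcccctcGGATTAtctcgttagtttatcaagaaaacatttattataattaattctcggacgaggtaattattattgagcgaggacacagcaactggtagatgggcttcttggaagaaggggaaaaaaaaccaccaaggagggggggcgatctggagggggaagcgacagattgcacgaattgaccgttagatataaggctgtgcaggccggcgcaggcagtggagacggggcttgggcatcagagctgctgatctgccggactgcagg
Lef1: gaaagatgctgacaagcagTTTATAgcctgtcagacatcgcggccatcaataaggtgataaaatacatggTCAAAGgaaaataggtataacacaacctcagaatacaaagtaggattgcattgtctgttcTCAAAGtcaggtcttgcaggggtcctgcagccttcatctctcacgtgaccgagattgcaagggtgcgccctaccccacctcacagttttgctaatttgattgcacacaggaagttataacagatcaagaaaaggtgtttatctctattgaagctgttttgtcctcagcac

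The motifs were GTCTCTA (core letters of the site described for PRDM14), CTTTGA (LEF and TCF factors), TAATCC (OTX factors), ATGCAAA (part of the octamer bound by POU factors) and TATAAA (the TATA box), and no match overlapped another. Fgf5 and Car4 each held 1 TATAAA, at 34 and 42 bases after the annotated start. These are matches of letters downstream of the start, and whether they act as a TATA box was not tested. The Otx2 window above held TAATCC on the opposite strand, 211 bases before the start. The Lef1 window above held CTTTGA at 2 places on the opposite strand, 180 and 120 bases before the start, and TATAAA on the opposite strand at 231 bases before it. Of the 6 windows not shown, 1 had a match, a TATAAA in the first Otx2 window. Over all 32851 RefSeq windows of this length, TATAAA was present in 13.6%, TAATCC in 7.06%, CTTTGA in 16.0%, ATGCAAA in 4.63% and GTCTCTA in 3.30%. These are shares per window, whereas the Otx2 and Lef1 windows shown were picked for a match among several windows of each gene. GTCTCTA and ATGCAAA were in none of the 10 member windows, which says only that these letters are not there.

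The windows also differed in CpG content. Fgf5 had 29 CpG dinucleotides and 68.3% G and C, Car4 had 15 and 57.3%, the 4 Otx2 windows had 6 to 16 and the 4 Lef1 windows 5 to 21. The middle part of all RefSeq windows, between the quartiles, ran between 3 and 20 CpG, with a median of 7. Fgf5 therefore lay above the upper quartile of promoters in CpG number, as did 1 Lef1 window with 21, and Car4 lay within the quartiles.

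All 5 members were lower in Prdm14 cells, where 47.2% of all listed genes were lower and 52.8% higher. The 886 listed genes are 4.36% of the 20309 genes over which the q-values were adjusted. The direction was known when the members were chosen, and listing itself is part of how they were chosen. Fgf5, Pou3f1 and Car4 stood below 5 TPM in Prdm14 cells, whereas Otx2 and Lef1 kept 113 and 33.0 TPM. In bulk RNA, fewer cells that express a gene and less RNA per cell cannot be told apart. Of the 5 members, 3 were lower by at least 4-fold, against 16.4% of all listed genes and 34.7% of the listed lower genes.

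**Figure D1:**
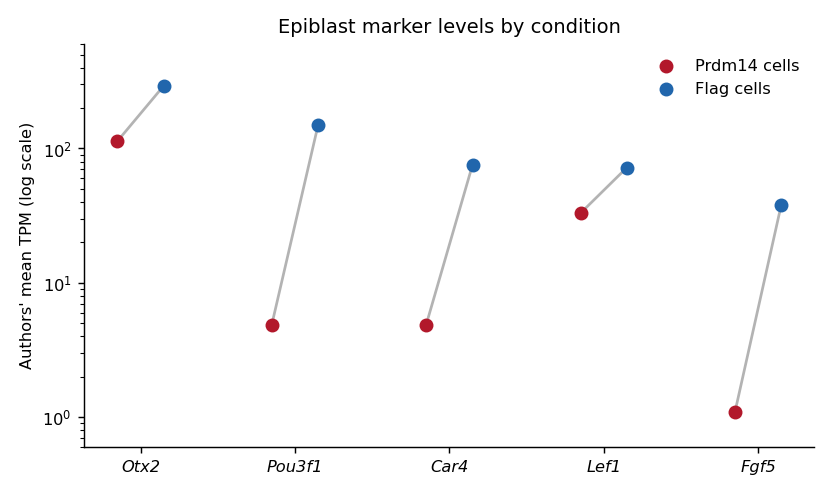
Authors' mean TPM on a log axis for each marker in Prdm14 cells (red, left) and Flag cells (blue, right), with a line joining the values of a gene and genes ordered by their Flag level. Pou3f1, Car4 and Fgf5 lie between 1.09 and 4.89 TPM in Prdm14 cells, while Otx2 and Lef1 stay at 113 and 33.0 TPM.

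Fgf5 (ENSMUSG00000029337) is a secreted fibroblast growth factor that signals through FGF receptors and marks the formative and primed epiblast. It lies on mm10 chromosome 5, 98254184 to 98277030, plus strand, with 2 coding transcripts in GENCODE M21. Its mean was 1.09 TPM in Prdm14 cells and 38.1 TPM in Flag cells, so 2.86% of the Flag level remained. It had the lowest level of the 5 members in both conditions. The residual 1.09 TPM placed it 832nd of 886 listed genes by level in Prdm14 cells, against 115th in Flag cells. No listed gene had both means below 5.01 TPM, so every listed higher gene stood above Fgf5 in Prdm14 cells. The fall in rank thus follows in part from how genes were listed. Fgf5 was not at the 0.0001 TPM floor at which 5 listed genes stood in Prdm14 cells. That says nothing of how precisely its 1.09 TPM was measured.

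Pou3f1 (ENSMUSG00000090125) encodes a POU-domain transcription factor of the epiblast and, later, of neural and Schwann cells. It lies on chromosome 4, 124656807 to 124660655, plus strand, with 1 annotated transcript. The mean was 4.89 TPM in Prdm14 cells and 149.8 TPM in Flag cells, so 3.27% of the Flag level remained. Pou3f1 had the smallest p-value of the authors' deposited table, with q = 6.18e-237. The antisense gene Gm2164 shares 330 exon bases with it, and strand-specific counting is not stated in the sources used here, so reads of the pair could be mixed.

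Car4 (ENSMUSG00000000805) encodes a carbonic anhydrase anchored to the outer cell surface, where it interconverts carbon dioxide and bicarbonate. It lies on chromosome 11, 84957786 to 84966044, plus strand. Its mean was 4.88 TPM in Prdm14 cells and 75.5 TPM in Flag cells, so 6.46% remained. Car4 and Pou3f1 were level in Prdm14 cells, with a Pou3f1 to Car4 ratio of 1.00, against 1.98 in Flag cells. No other annotated gene overlaps Car4 or Fgf5.

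Otx2 (ENSMUSG00000021848) encodes a homeodomain factor that acts in the exit from the naive state and later in the anterior head. It lies on chromosome 14, 48657677 to 48673819, minus strand. Its mean was 113 TPM in Prdm14 cells and 293 TPM in Flag cells, so 38.7% remained. In TPM this was the largest difference of the 5 members, at -180 TPM, although its fold was the second smallest. Otx2 was among 8 listed lower genes that still stood above 100 TPM in Prdm14 cells, out of 28 such genes above 100 TPM in Flag cells. It ranked 38th of 886 by level in Prdm14 cells and 11th in Flag cells. Its exons share 154 bases with the opposite-strand gene Otx2os1 and 168 bases with Gm49154 on the same strand.

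Lef1 (ENSMUSG00000027985) encodes an HMG-box factor that binds beta-catenin and activates Wnt target genes. It lies on chromosome 3, 131110471 to 131224356, plus strand, with 4 coding transcripts from more than 1 start, which the table does not separate. Its mean was 33.0 TPM in Prdm14 cells and 72.2 TPM in Flag cells, so 45.8% remained. Its log2 fold change of -1.13 was the smallest of the members and close to the smallest size in the table, 1.00. The antisense gene Gm43352 shares 1208 exon bases with Lef1.

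The authors' deposited table also gives p-values, from a test that the sources used here do not name. Whether that test took in variation between cultures or clones is not known, so the places below are a description only. The q-values follow Benjamini-Hochberg's formula for 20309 p-values, from which the place of each p-value among all those genes can be read. Pou3f1 held place 1, Car4 place 8, Fgf5 place 9, Otx2 place 37 and Lef1 place 430. In the authors' deposited table the q-values were 6.80e-102 for Car4, 1.37e-99 for Fgf5, 9.32e-54 for Otx2 and 5.52e-13 for Lef1. By log2 decrease among the 886 listed genes, Fgf5 was 13th, Pou3f1 14th, Car4 32nd, Otx2 276th and Lef1 355th.

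**Figure D2:**
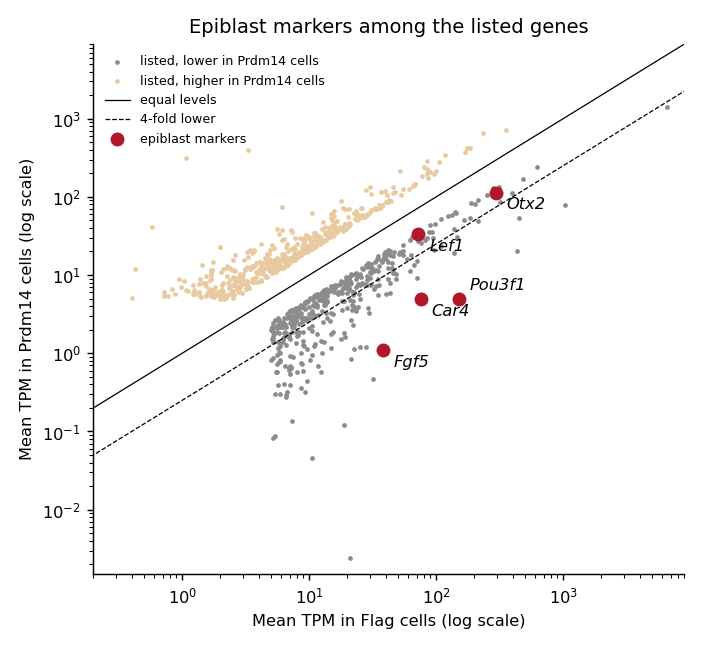
Mean TPM in Prdm14 cells (vertical, log axis) against Flag cells (horizontal, log axis) for the listed genes, without the 6 genes at the floor in either condition. Fgf5, Pou3f1 and Car4 lie below the dashed 4-fold line at 38.1 to 149.8 TPM in Flag cells, and Otx2 and Lef1 lie between the dashed line and the line of equal levels.

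The relative amounts of the 5 transcripts differed between conditions. Their levels summed to 157 TPM in Prdm14 cells and 629 TPM in Flag cells, so 25.0% of the sum remained. Otx2 made up 72.1% of the sum in Prdm14 cells and 46.6% in Flag cells. Lef1 made up 21.0% in Prdm14 cells and 11.5% in Flag cells. Pou3f1, Car4 and Fgf5 together made up 6.90% in Prdm14 cells and 41.9% in Flag cells. The order of levels in Prdm14 cells was Otx2, Lef1, Pou3f1, Car4, Fgf5, whereas in Flag cells it was Otx2, Pou3f1, Car4, Lef1, Fgf5. With no spread over libraries, neighbours in either order, such as Pou3f1 and Car4 in Prdm14 cells or Car4 and Lef1 in Flag cells, cannot be said to differ.

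Ratios between members show which of them moved in proportion. The Otx2 to Pou3f1 ratio was 23.2 in Prdm14 cells and 1.96 in Flag cells, and the Otx2 to Fgf5 ratio was 104 in Prdm14 cells and 7.70 in Flag cells. The Otx2 to Lef1 ratio was 3.44 in Prdm14 cells and 4.06 in Flag cells. The Pou3f1 to Fgf5 ratio was 4.49 in Prdm14 cells and 3.94 in Flag cells. The ratios within these last pairs thus differed far less between conditions than the ratios of Otx2 to Pou3f1 or Fgf5, with no replicate error known.

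Each member was set beside the listed lower genes whose Flag level lay within 2-fold of its own, a description that includes other members. Of 28 such genes around Pou3f1, 0 kept a smaller share of their Flag level, and their median share was 38.6%. Around Fgf5, 2 of 126 kept a smaller share, namely Foxi3, a forkhead gene at 1.48%, and the predicted gene Gm47308. Around Car4, 2 of 62 did, namely Fgf5 and Pou3f1. Otx2 and Lef1 were unlike these: 10 of 16 genes around Otx2 and 50 of 62 around Lef1 kept a smaller share. The Otx2 share of 38.7% was above the 29.5% median of its neighbours in level, and the Lef1 share of 45.8% above the 37.7% of its own. No listed gene had a log2 fold change smaller in size than 1.00, so genes that kept more of their Flag level are missing here. These medians describe listed lower genes only, not all genes at such levels. Over all 418 listed lower genes the median share was 33.0%.

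**Figure D3:**
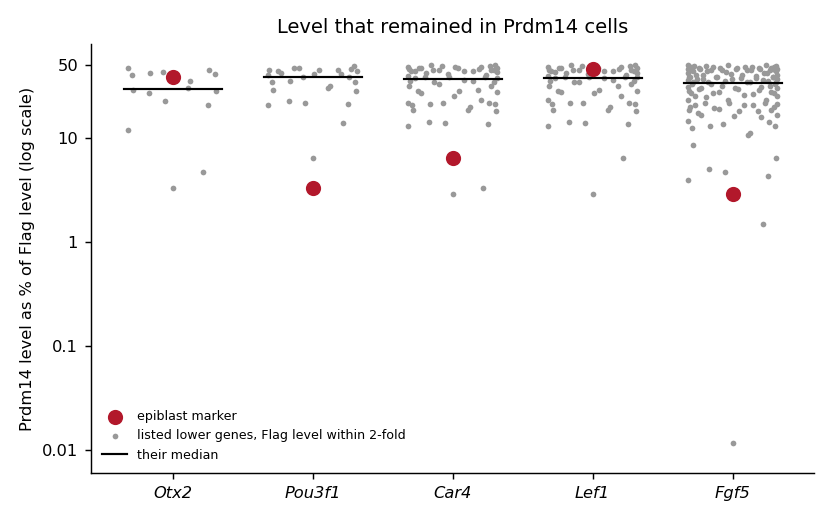
Prdm14 level as a percent of the Flag level, on a log axis, for each marker (red) and for listed lower genes with a Flag level within 2-fold (grey, median as a black line), without genes at the floor. Pou3f1, Car4 and Fgf5 lie at 3.27%, 6.46% and 2.86%, under medians between 33.8% and 38.6%, and Otx2 and Lef1 lie above theirs.

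The genes most like each member were taken as the nearest in the plane of both log2 levels, over 2 conditions only. Nearest to Fgf5 were Pdpn, which encodes the surface glycoprotein podoplanin, at 1.21 TPM in Prdm14 cells and 28.2 TPM in Flag cells, then Vrtn and the de novo methyltransferase gene Dnmt3c, at distances of 0.46, 0.61 and 0.76. The nearest gene to Pou3f1 was Car4, at 0.99, followed by the phospholipase gene Plcg2 at 1.42 and Podxl at 1.76, the largest distances of the 5 members. Nearest to Car4 were Psors1c2, Plcg2 and the claudin gene Cldn7, at 0.85, 0.92 and 0.94. Otx2 lay close to Ldhb, a lactate dehydrogenase subunit gene, Mrpl12, a mitochondrial ribosomal protein gene, and Mycn, at 0.21, 0.25 and 0.26. Lef1 lay closest to Cd276, Zkscan17 and Card19, at 0.08, 0.12 and 0.15. The nearest listed gene thus lay closer to Otx2 and Lef1 than to the other members.

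The wider list of formative and primed epiblast genes had 34 members, of which 22 were listed, 21 lower and 1 higher. That is 64.7% of the list, beside 4.36% of all genes. The 4.36% is over 20309 genes of any level, whereas no listed gene had both means below 5.01 TPM. So it is not a background matched in level to this list or the lists below. This list, like the lists below, was written with earlier results of these data known. Its share is therefore no independent support for the markers. In the authors' deposited table the median log2 fold change of the 22 listed genes was -1.67. Over all 886 listed genes, 47.2% were lower and the median was 1.03, and among the 418 lower genes the median was -1.60. Without the 5 markers, 17 were listed and 16 lower, with a median of -1.52. Pim2, a serine/threonine kinase gene, stood at 20.3 TPM in Prdm14 cells and 430 TPM in Flag cells, 21.2-fold lower, which placed it between Pou3f1 and Car4. The de novo methyltransferase gene Dnmt3b was 13.1-fold lower, and its cofactor Dnmt3l 2.86-fold lower. Lefty1 and Lefty2, secreted inhibitors of Nodal, were 7.23-fold and 4.68-fold lower. The zinc finger genes Sall2 and Zic2 were 5.46-fold and 3.56-fold lower, and the epithelial genes Cldn6 and Krt18 were 4.80-fold and 4.30-fold lower. The other lower list genes were 2.01-fold to 2.72-fold lower, the range in which Otx2 (2.58-fold) and Lef1 (2.18-fold) also lay. List members outside the table have no value here.

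Among 30 genes of FGF ligands, receptors and ERK feedback, 8 were listed (26.7%, beside 4.36% of all genes). Of these, 3 were lower and 5 higher, beside 47.2% and 52.8% of all listed genes. The ligand Fgf5 was lower together with the receptor gene Fgfr2, at 1.79 TPM in Prdm14 cells and 7.94 TPM in Flag cells, and Spred3, which encodes a Spred-family inhibitor of ERK signalling. Fgf18, another secreted ligand, stood at 5.06 TPM in Prdm14 cells and 1.98 TPM in Flag cells. Etv4, an ETS factor gene induced by FGF signals and the single higher gene of the epiblast list, stood at 206 TPM in Prdm14 cells and 89.1 TPM in Flag cells. The feedback inhibitor genes Spry4 and Spred1 were 2.32-fold and 2.46-fold higher, and Shisa2 2.15-fold higher.

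Of 35 Wnt, TCF and LEF genes, 4 were listed (11.4%, beside 4.36% of all genes). Lef1 was lower together with the Wnt receptor gene Fzd7, at 35.8 TPM in Prdm14 cells and 87.0 TPM in Flag cells, and Sfrp2, a secreted Wnt modulator, at 15.8 TPM in Prdm14 cells and 37.1 TPM in Flag cells. Sfrp1, a secreted Wnt antagonist of the same family as Sfrp2, stood at 37.7 TPM in Prdm14 cells and 6.08 TPM in Flag cells, 6.20-fold higher. Listed relatives of Pou3f1 were higher and those of Car4 lower. Of 15 POU genes, 3 were listed (20%, beside 4.36% of all genes): Pou3f1 was lower, while Pou4f1 and Pou4f2, POU factors of sensory neurons and retinal ganglion cells, were 2.20-fold and 9.30-fold higher. Of 16 carbonic anhydrases, 3 were listed (18.8%) and lower: Car14, a membrane enzyme, was 5.62-fold lower, Car2, a cytosolic enzyme, 2.13-fold lower, and Car4 15.5-fold lower.

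**Figure D4:**
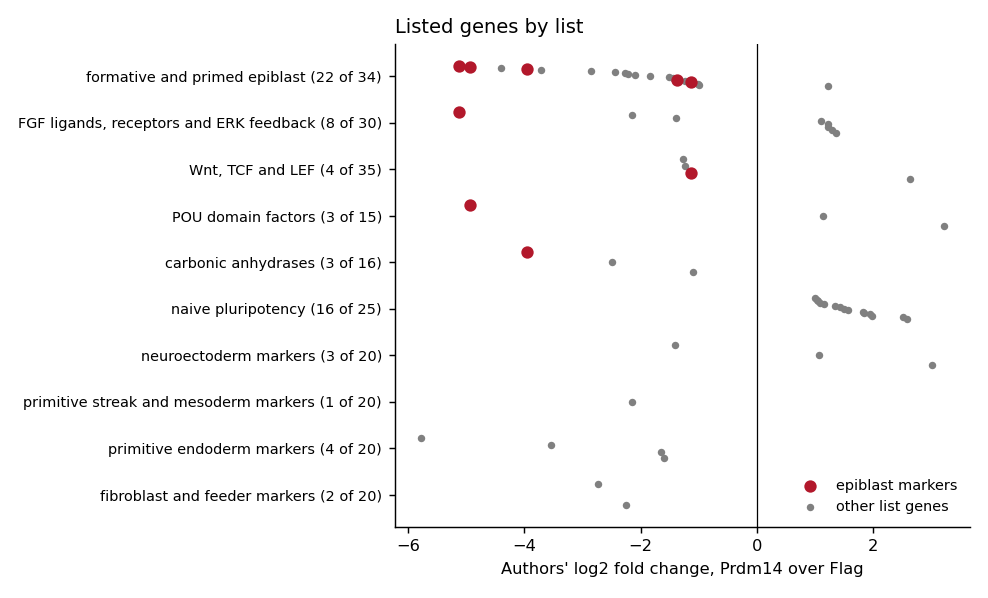
Authors' log2 fold change, Prdm14 over Flag, for each listed gene (dots) of the lists described in the text with at least 1 listed gene, with the epiblast markers in red and the number listed of the list's size in brackets; Prdm14 itself is not drawn in the naive list. Of 22 listed epiblast genes 21 lie left of 0, and the 15 naive genes drawn lie right of it.

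Of 25 naive pluripotency genes, 16 including Prdm14 were listed (64%, beside 4.36% of all genes), and the others have no value here. All 16 were higher, as were 52.8% of all listed genes. The 15 other than Prdm14 summed to 2733 TPM in Prdm14 cells and 1085 TPM in Flag cells. Both conditions thus carried naive markers beside the epiblast markers. Tbx3, Gbx2 and Tfcp2l1, transcription factors of the naive state, were 5.98-fold, 5.72-fold and 3.94-fold higher. The 10-gene core pluripotency list had no listed gene, so its members have no value here.

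Otx2 and Pou3f1 are also expressed outside the epiblast, and markers of other cell types were read beside them. The shares listed were 15% of neuroectoderm, 5% of primitive streak and mesoderm, 20% of primitive endoderm and 10% of fibroblast and feeder markers, beside 4.36% of all genes. Of 20 neuroectoderm markers, 3 were listed, Cdh2 lower and Tubb3 and Sox21 higher. Together they summed to 149.6 TPM in Prdm14 cells and 75.1 TPM in Flag cells. Most of this was Tubb3, at 138.2 TPM in Prdm14 cells and 66.0 TPM in Flag cells. Sox21 stood at 8.34 TPM in Prdm14 cells and 1.04 TPM in Flag cells. Cdh2, which is also in the epiblast list, stood at 3.03 TPM in Prdm14 cells and 8.05 TPM in Flag cells. Of 20 primitive streak and mesoderm markers, Snai1 alone was listed, at 1.39 TPM in Prdm14 cells and 6.19 TPM in Flag cells. Of 20 primitive endoderm markers, 4 were listed, all lower, namely Cubn, Dab2, Col4a2 and Lama1, and summed to 6.19 TPM in Prdm14 cells and 39.3 TPM in Flag cells. Of 20 fibroblast and feeder markers, Myl9 and Tagln were listed, and summed to 2.98 TPM in Prdm14 cells and 17.5 TPM in Flag cells. The part of such cells in the members' values was not tested.

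Of 5 listed genes within 1 Mb of a member, 3 were higher and 2 lower, close to the 52.8% and 47.2% of all listed genes. Near Pou3f1, Zc3h12a at 458 kb and Grik3 at 830 kb were higher, and Sgms2, at 94.6 kb from Lef1, was higher. Gm3470, at 745 kb from Fgf5, and Ktn1, at 918 kb from Otx2, were lower. Car4 had no listed gene within that distance. These neighbours were named after their values were seen.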

How the data were processed

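RNA from 46C cells was sequenced on an MGI2000 instrument, with 1 ug of total RNA per library per the labels' protocols. Mean TPM per condition, the log2 fold change (Prdm14 over Flag), the p-value and the q-value were computed by the authors and deposited in 1 table of 886 genes. Per the submitters' processing notes, reads were processed with Bowtie 0.12.2 and the mm10 build. The sources used here do not name the TPM program, the test or the number of libraries, and depth is unknown. TPM is relative within a library, so a large rise of some genes lowers the rest.

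Among the listed genes, the smallest log2 fold change in size was 1.00, the smallest larger mean 5.01 TPM and the largest q-value 0.0427. These are extremes seen in the table, not stated cutoffs. All 886 IDs matched a symbol. Folds are ratios of the authors' means. Place by p-value was read from q, p and 20309 genes, and was whole to within 0.01 in 830 genes; this step was tested on simulated data. Coordinates are 1-based from GENCODE M21.

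The members and 12 gene lists were chosen with earlier results of these data known. Named genes are the members, the 3 nearest genes to each, up to 12 listed genes of lists that hold a member, and up to 4 of other lists; others are said to be named after their values were seen. The result of 1 list is not reported here. Alternatives changed the pseudocount, fold, q and TPM limits. Computations ran in Python 3.11.15 with pandas 2.3.3 and numpy 2.4.6, and figures in matplotlib 3.10.9.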

Additional observations from a re-analysis of the deposited data

How the results depend on the processing

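A pseudocount of 1 or 5 TPM added to both means cannot change which mean is larger. All 5 members thus stayed lower by construction, and only the size of the fold could move. Otx2 and Lef1 moved by less than 1.5-fold under both. The log2 fold change of Fgf5 was -4.22 with a pseudocount of 1 and -2.82 with 5, against -5.13 without, so its fold of 34.9 became 18.7 and 7.07. With a pseudocount of 5, Pou3f1 was at -3.97 and Car4 at -3.03. Pou3f1 had the largest fold of the members at both pseudocounts (25.6 with 1 and 15.7 with 5), and with 5 the fold of Car4 (8.15) also passed that of Fgf5. Among genes that differed by at least 2 on the log2 scale, there were 3 lower members, 10 lower epiblast list genes, 145 lower and 77 higher genes, as a stricter limit must reduce them. At a mean of at least 10 TPM, 188 lower and 273 higher genes were left, with all 5 members and 19 epiblast list genes among the lower. A q-value of at most 0.01 kept all 5 members and 21 epiblast list genes. The epiblast list without the members, an alternative chosen after seeing the data, had 16 lower genes. No paired analysis was possible because each condition has 1 sample and the values are condition means. Leaving out a replicate was not possible for the same reason, and low levels, such as 1.09 TPM for Fgf5, have an unknown counting error.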
